A study of Mus musculus with 16 samples.

Results

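Collagens are trimers of 3 polypeptide chains, and each chain is encoded by a gene of its own. Fibrillar collagens form the striated fibres of skin, bone, tendon and cartilage, the fibril-associated collagens (FACITs) coat those fibres, and network-forming collagens build basement membranes and other sheets. Fibroblasts are the main collagen-secreting cells of connective tissue. Described here are 38 collagen genes of mouse embryonic fibroblasts (MEFs). They were chosen as a list of collagen gene symbols and not by their values, although earlier results of these data were known. Each of the 38 has 1 probe set on the array, and they are 38 of 19938 genes tested. By the structure of their products, 11 are fibrillar, 8 are FACITs, 6 encode chains of the basement membrane collagen type IV, 4 are transmembrane collagens, 3 form beaded filaments (type VI), 3 form hexagonal networks (types VIII and X), 2 are multiplexins (types XV and XVIII) and 1 is the anchoring fibril collagen (type VII).

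The RNA came from proliferating MEFs of the mixed strain C57Bl/6 x 129Sv, either from littermate control embryos (genotype WT) or from embryos without SIMPL (SIMPL-/-), a protein that takes part in NF-κB signalling downstream of TNFα. Each genotype was left untreated or received recombinant human TNFα at 10 ng/ml, for 45 min by the labels and for a longer time by the study's methods. This gave 4 groups of 4 Affymetrix Mouse Gene 1.0 ST arrays. By the study's methods each MEF culture was grown from 1 embryo, and the SIMPL-/- mice are viable animals in which the loss of the gene is not limited to fibroblasts. Values are log2 RMA values, so that a difference of 1 is a doubling, and "log2 difference" below is a difference of group means on this scale with its standard error (SE) from limma, adjusted over all genes. A gene was called at an adjusted p under 0.05.

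Arrays of a group were alike (r of at least 0.995 across genes), and the array medians ran from 6.67 to 6.76. Irak1bp1, which encodes SIMPL, went from 8.09 ± 0.17 in littermate to 5.36 ± 0.19 in SIMPL-/- MEFs without TNFα (SD, n = 4), a log2 difference of -2.73 (SE 0.12, adjusted p = 2.15e-12 by limma). Between the genotypes 40.9% of all genes were called without TNFα and 36.3% with it, so a call between genotypes was common on these arrays. No label names a batch, and batch and genotype cannot be told apart. The strain is mixed, and whether strain sequence near Irak1bp1 differs between the genotypes was not tested. Vim, which encodes the mesenchymal intermediate filament vimentin, read 13.71 ± 0.03 and 13.87 ± 0.02 (SD, n = 4) in the untreated genotypes. It is 1 of 14 fibroblast markers, of which 10 were lower and 3 higher in untreated SIMPL-/- MEFs (median log2 difference -0.41). Of all genes 17.6% were lower and 23.3% higher. Littermate MEFs also showed macrophage genes at levels that the SIMPL-/- MEFs did not reach. Over 29 myeloid markers the mean log2 value of an array lay between 9.17 and 9.52 in untreated littermate and between 7.25 and 7.39 in untreated SIMPL-/- MEFs.

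Collagen mRNA levels differed between the genotypes in both directions, and TNFα changed none of them detectably in either genotype. In untreated SIMPL-/- MEFs 8 of the 38 collagen genes were higher than in littermate MEFs, 12 were lower and 18 were not called, against a background of 40.9% of all genes called in either direction (23.3% higher, 17.6% lower). The share of collagen genes called was 52.6% (21.1% higher, 31.6% lower). With TNFα, on other arrays, 7 were higher, 14 lower and 17 not called, or 55.3% against 36.3% of all genes (17.8% higher, 18.4% lower). The labels do not tie arrays to embryos, so treated and untreated arrays may share embryos. Both genotype comparisons are thus not shown to be independent. The same direction was called in both comparisons for 19 collagen genes, 7 higher and 12 lower, while 26.4% of all genes were. Littermate and SIMPL-/- arrays did not overlap for 20 of the 38 genes without TNFα (39.6% of all genes) and for 21 with it (33.3%). A called difference over 1.5-fold without TNFα was found for 5 collagen genes, or 13.2% against 6.95% of all genes. Among genes above the median brightness this was 12.9% of collagen genes (4 of 31) against 10.5% of all. The median log2 difference of the 38 genes was 0.02 without and -0.04 with TNFα, near those of all genes (0.07 and 0.03). Calls were more frequent among brightly hybridising genes, so the 31 collagen genes whose mean was above the median gene are better set against the genes above that median. Of these 31, 58.1% were called without TNFα and 64.5% with it, against 53.2% and 54.6% of all genes above the median. In the same brighter genes 38.7% of collagen genes were lower without TNFα and 45.2% with it, against 28.4% and 28.8% of all.

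**Figure D1:**
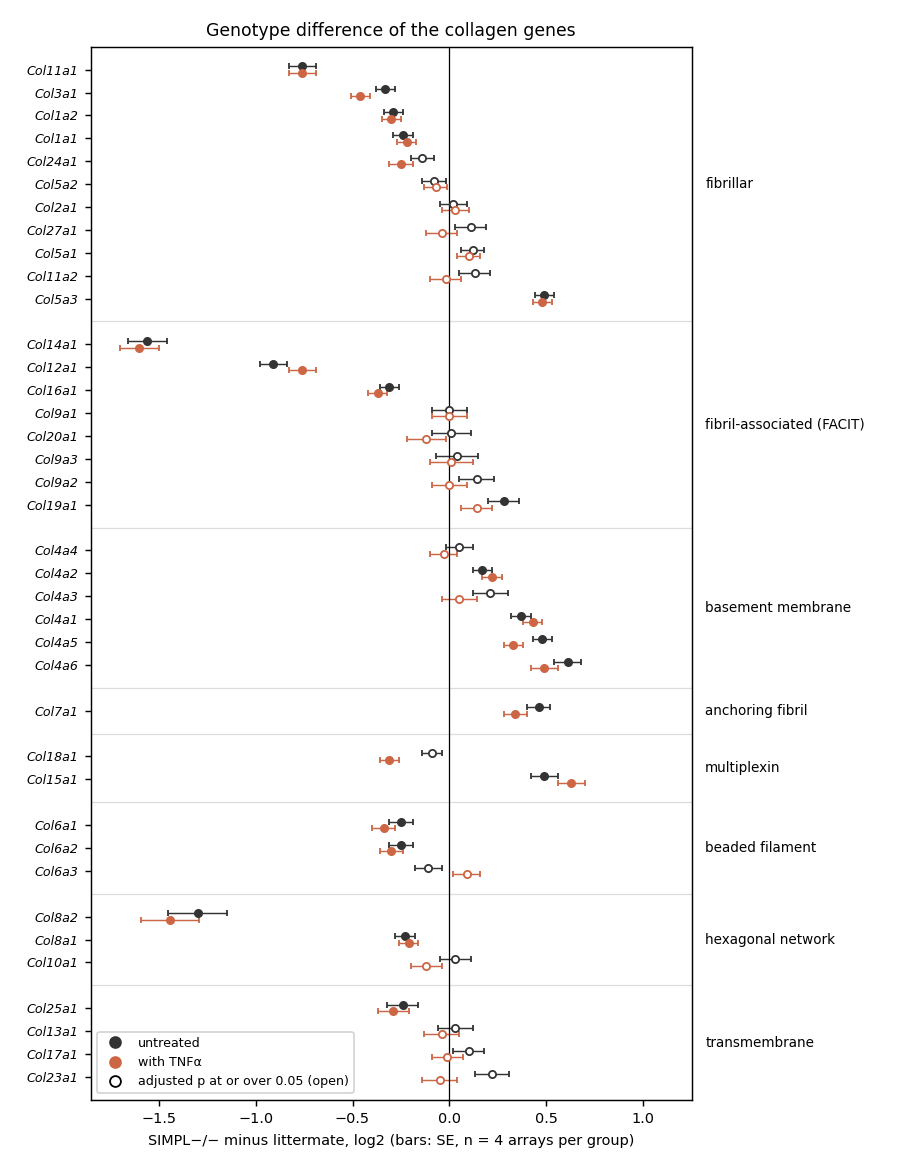
SIMPL-/- minus littermate difference on the log2 scale (x axis) for each of the 38 collagen genes, grouped by structural class (y axis), untreated (dark) and with TNFα (orange); bars are SEs from limma with 4 arrays per group, and open points have an adjusted p of 0.05 or more. Col14a1, Col8a2, Col12a1 and Col11a1 lie farthest to the left, and the 4 called type IV chains lie to the right of 0.

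The 4 largest differences were decreases, of Col14a1, Col8a2, Col12a1 and Col11a1. Col14a1, whose FACIT product binds the surface of collagen fibrils in dense connective tissue, read 10.63, 10.59, 10.74 and 10.64 on the untreated littermate arrays and 8.92, 9.15, 9.33 and 8.98 on the untreated SIMPL-/- arrays. With TNFα it read 11.03, 10.69, 10.70 and 10.54 in littermate and 9.06, 9.38, 8.98 and 9.16 in SIMPL-/- MEFs. Every SIMPL-/- array was more than 1 log2 unit below every littermate array. The log2 difference was -1.56 (SE 0.10, 2.94-fold, adjusted p = 7.8e-10) without and -1.60 (3.03-fold) with TNFα. Col12a1 encodes the other widespread FACIT of tendon and fascia. It read 12.92, 13.00, 12.81 and 12.87 in untreated littermate MEFs and 11.82, 12.09, 12.13 and 11.90 in untreated SIMPL-/- MEFs, and the groups did not overlap. Its log2 difference was -0.91 (SE 0.07, 1.89-fold, adjusted p = 3.79e-09) without and -0.76 (1.69-fold) with TNFα, where littermate arrays read 12.72 to 12.83 and SIMPL-/- arrays 11.96 to 12.14. Another FACIT gene, Col16a1, read 9.61, 9.57, 9.52 and 9.41 in untreated littermate and 9.23, 9.22, 9.19 and 9.26 in untreated SIMPL-/- MEFs, a smaller difference of -0.31 (SE 0.05, adjusted p = 0.000159) that was -0.37 with TNFα. The only FACIT gene that was higher was Col19a1, whose probe set was dim. It read 6.01, 6.14, 5.88 and 5.94 in untreated littermate and 6.18, 6.30, 6.28 and 6.34 in untreated SIMPL-/- MEFs. Its difference was 0.28 (SE 0.08, adjusted p = 0.00886), and with TNFα it was 0.14 (adjusted p = 0.183) with overlapping groups. Below the median gene, 77.7% of all genes had an estimate above 0 between the untreated genotypes and the median log2 difference was 0.11, and Col19a1 stands among these dim genes. The cartilage FACIT genes Col9a1, Col9a2 and Col9a3, and Col20a1, were not called in either comparison, with log2 differences between -0.12 and 0.14.

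Among the fibrillar collagens 1 gene was higher, 4 were lower and 6 were not called without TNFα, a share of 45.5% against 40.9% of all genes. With TNFα 1 was higher and 5 lower, a share of 54.5% against 36.3% of all genes. Among all genes above the median brightness, where the fibrillar genes lie, 53.2% were called without and 54.6% with TNFα. Col11a1, a minor chain of fibrils that helps to set their diameter, fell most. It read 11.10, 11.05, 10.92 and 10.93 in untreated littermate and 10.18, 10.36, 10.22 and 10.20 in untreated SIMPL-/- MEFs. With TNFα it read 11.07, 10.85, 10.89 and 10.84 against 10.08, 10.24, 10.13 and 10.14. No arrays of the genotypes overlapped, with SDs of 0.07 to 0.11 within the groups, and the log2 difference was -0.76 (SE 0.07) in both comparisons (adjusted p = 2.69e-08 and 2.22e-08). Col11a2, its partner chain in cartilage fibrils, read 7.57, 7.61, 7.54 and 7.72 against 7.85, 7.71, 7.61 and 7.82 in the untreated groups, which overlapped. Its log2 difference was 0.13 (adjusted p = 0.206) and -0.02 with TNFα.

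The main fibril-forming chains of connective tissue were lower by a smaller amount. Col3a1, the single chain of type III collagen of skin and vessels, read 13.41, 13.38, 13.30 and 13.28 in untreated littermate and 12.96, 13.02, 13.07 and 12.99 in untreated SIMPL-/- MEFs. Its log2 difference was -0.33 (SE 0.05, 1.26-fold, adjusted p = 6.78e-05), and -0.46 with TNFα. Col1a2, the α2 chain of type I collagen, read 14.20, 14.16, 14.11 and 14.06 against 13.84, 13.85, 13.88 and 13.80, a difference of -0.29 (SE 0.05, adjusted p = 6.78e-05). Col1a1, the α1 chain of the same molecule, read 14.40, 14.40, 14.37 and 14.35 against 14.18, 14.14, 14.16 and 14.09, a difference of -0.24 (SE 0.05, 1.18-fold, adjusted p = 0.000389). For all 3 genes the SIMPL-/- arrays were all lower than the lowest littermate array, with and without TNFα. The type I values are near the top of the table, whose highest value is 14.9, and whether probes this bright understate a difference was not tested.

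Against this direction, Col5a3, a chain of the fibril-initiating type V collagen found in part of its trimers, was higher in SIMPL-/- MEFs. It read 8.83, 8.76, 8.82 and 8.80 in untreated littermate and 9.32, 9.26, 9.29 and 9.30 in untreated SIMPL-/- MEFs. The log2 difference was 0.49 (SE 0.05, 1.40-fold, adjusted p = 2.27e-07), and 0.48 with TNFα. The more widely used type V chains were not called. Col5a1 differed by 0.12 (adjusted p = 0.119) and Col5a2 by -0.08 (adjusted p = 0.286) without TNFα. Col2a1, the chief collagen of cartilage, differed by 0.02 (95% interval -0.14 to 0.17). Col24a1 was lower with TNFα alone (-0.25, adjusted p = 0.00199), with -0.14 (adjusted p = 0.0668) without it. Col27a1 was not called in either comparison.

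**Figure D2:**
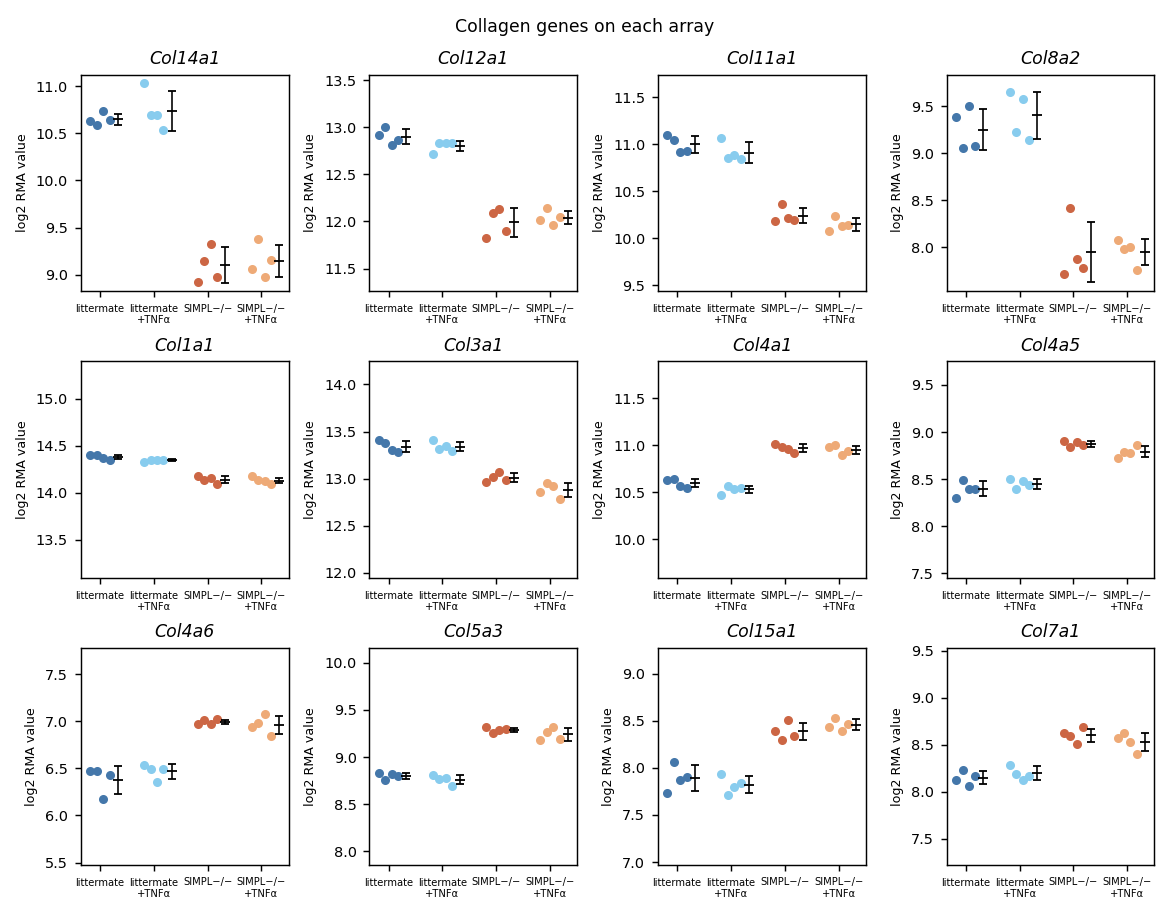
log2 RMA value (y axis, the same span of 2.3 units in each panel) on each of the 16 arrays, by group (x axis), for 12 collagen genes; bars are means ± SD of 4 arrays. The 12 genes were picked from those called in both genotype comparisons. Littermate and SIMPL-/- arrays do not overlap in any of these panels, and treated arrays lie beside the untreated arrays of their genotype.

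The network of type VIII collagen, the hexagonal lattice under the corneal endothelium that is also made by vascular and mesenchymal cells, showed unequal changes of its chains. Col8a2 read 9.38, 9.06, 9.50 and 9.08 in untreated littermate and 7.72, 8.42, 7.88 and 7.78 in untreated SIMPL-/- MEFs. With TNFα the values were 9.65, 9.23, 9.57 and 9.14 against 7.76 to 8.08. No arrays of the genotypes overlapped, although Col8a2 had the largest SD of any member within a group (0.32 in untreated SIMPL-/- MEFs). Its log2 difference was -1.30 (SE 0.15, 2.47-fold, adjusted p = 7.63e-07) without and -1.44 (2.72-fold) with TNFα. Col8a1 read 10.94, 10.98, 10.86 and 10.83 against 10.71, 10.67, 10.73 and 10.59 without TNFα. Its difference was -0.23 (SE 0.05, 1.17-fold, adjusted p = 0.00234), and -0.21 with TNFα. Col10a1, the collagen of hypertrophic cartilage, was dim and differed by 0.03 (adjusted p = 0.766).

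The promoter sequences of Col8a2 and Col11a1 are shown because these are the strongest decreases with a promoter in the RefSeq table (GRCm38.p6) that was used. They are the bases upstream of the annotated gene, 5′ to 3′ on the strand of the gene, at chr4:126286544-126286793 (plus strand) for Col8a2 and chr3:114030290-114030478 (plus strand) for Col11a1, and capitals mark a GC box (GGGCGG) or a CCAAT box (CCAAT) on either strand. The last 2 of the 4 GC boxes of Col8a2 overlap each other, and the full window of Col11a1 holds 1 further GC box that is not printed.

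Col8a2: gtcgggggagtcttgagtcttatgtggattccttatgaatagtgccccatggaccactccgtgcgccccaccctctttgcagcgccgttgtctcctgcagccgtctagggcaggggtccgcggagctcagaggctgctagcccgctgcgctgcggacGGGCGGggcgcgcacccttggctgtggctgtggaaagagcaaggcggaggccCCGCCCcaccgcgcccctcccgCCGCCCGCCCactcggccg

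Col11a1: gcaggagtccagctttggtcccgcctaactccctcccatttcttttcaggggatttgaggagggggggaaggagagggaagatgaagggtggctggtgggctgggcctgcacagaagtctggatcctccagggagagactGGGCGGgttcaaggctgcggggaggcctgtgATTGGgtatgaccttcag

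Neither upstream sequence holds TATAAA or the NF-κB consensus in the letters searched. Promoters were found for 31 of the 38 genes (34 windows of 250 upstream bases, both strands searched), and those of Col1a1, Col2a1, Col4a3, Col5a2, Col9a3, Col12a1 and Col14a1 are not shown. A GC box stood in 19 of the 34 windows (55.9%, against 32.7% of the 32851 windows of all genes), a CCAAT box in 12 (35.3% against 33.8%) and TATAAA in 5 (14.7% against 12.4%). The NF-κB consensus matched in 3 windows (8.82% against 3.90%), those of Col9a1, Col9a2 and Col27a1, none of which was called in any comparison.

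Basement membrane collagen moved the other way. Of the 6 type IV genes 4 were higher in SIMPL-/- MEFs in both comparisons (23.3% and 17.8% of all genes were) and none was lower, with a median log2 difference of 0.29 without and 0.28 with TNFα. Col4a1 and Col4a2, whose products form the trimer found in nearly all basement membranes, lie head to head on chromosome 8. Col4a1 read 10.63, 10.64, 10.57 and 10.55 in untreated littermate and 11.01, 10.98, 10.96 and 10.92 in untreated SIMPL-/- MEFs, a difference of 0.37 (SE 0.05, 1.29-fold, adjusted p = 5.07e-06), and 0.43 with TNFα. Col4a2 read 10.97, 10.95, 10.87 and 10.81 against 11.11, 11.10, 11.05 and 11.01, a difference of 0.17 (SE 0.05, 1.13-fold, adjusted p = 0.0147), and 0.22 with TNFα. The groups of neither gene overlapped, but the call of Col4a2 without TNFα is lost when arrays are centred on their medians or when littermate replicate 4 is left out. The annotated start sites of both genes overlap by 22 bases, chr8:11312805-11312826 of GRCm38.p6. These are printed on the plus strand, the strand of Col4a2, since the genes share them, and capitals mark a GC box.

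Col4a1/Col4a2: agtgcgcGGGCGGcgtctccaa

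Col4a5 and Col4a6 form a second head-to-head pair, on the X chromosome, with start sites 1343 bases apart, and encode chains of a trimer of smooth muscle and epithelial basement membranes. Col4a6, a dim probe set, read 6.47, 6.47, 6.17 and 6.43 in untreated littermate and 6.97, 7.01, 6.97 and 7.02 in untreated SIMPL-/- MEFs. Its log2 difference of 0.61 (SE 0.07, 1.52-fold, adjusted p = 1.27e-06) was the highest of the 38 genes without TNFα, and it was 0.49 with TNFα. Col4a5 read 8.30, 8.49, 8.39 and 8.40 against 8.90, 8.84, 8.89 and 8.86, a difference of 0.48 (SE 0.05, 1.39-fold, adjusted p = 7.69e-07), and 0.33 with TNFα. The lowest SIMPL-/- array was above the highest littermate array for both genes in both comparisons. Col4a3 and Col4a4, which encode chains found in the glomerular basement membrane, were both dim and not called, with differences of 0.21 (adjusted p = 0.0589) and 0.05 (adjusted p = 0.574).

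The upstream bases of this second pair are shown because its genes rose together and point away from each other. Each is given 5′ to 3′ on the strand of its gene, at chrX:141474096-141474326 (minus strand) for Col4a6 and chrX:141475169-141475369 (plus strand) for Col4a5. Capitals mark the 1 CCAAT box. The printed stretches stop where the annotated gene begins, and the full windows of 250 bases hold 1 GC box each that is not printed.

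Col4a6: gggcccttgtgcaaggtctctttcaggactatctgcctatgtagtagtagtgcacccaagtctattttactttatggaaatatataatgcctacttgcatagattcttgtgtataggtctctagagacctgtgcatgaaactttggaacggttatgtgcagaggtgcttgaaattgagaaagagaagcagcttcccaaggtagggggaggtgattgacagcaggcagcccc

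Col4a5: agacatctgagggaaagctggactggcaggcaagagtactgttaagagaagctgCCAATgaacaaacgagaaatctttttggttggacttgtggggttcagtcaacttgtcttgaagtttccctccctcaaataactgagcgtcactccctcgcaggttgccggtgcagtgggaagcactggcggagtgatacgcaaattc

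Of the other collagens of the basement membrane zone, Col15a1 and Col7a1 were also higher. Col15a1, a multiplexin that links basement membranes to fibrils, read 7.73, 8.06, 7.87 and 7.90 in untreated littermate and 8.39, 8.30, 8.51 and 8.34 in untreated SIMPL-/- MEFs. Its log2 difference was 0.49 (SE 0.07, 1.41-fold, adjusted p = 1.52e-05), and 0.63 (1.55-fold) with TNFα, where littermate arrays read 7.71 to 7.93 and SIMPL-/- arrays 8.39 to 8.53. Col7a1, the collagen of the fibrils that anchor epidermis to dermis, read 8.13, 8.23, 8.06 and 8.17 against 8.62, 8.59, 8.51 and 8.69, a difference of 0.46 (SE 0.06, 1.37-fold, adjusted p = 9.56e-06), and 0.34 with TNFα. Neither gene's groups overlapped. Col18a1, the other multiplexin and the precursor of endostatin, went the other way. It was not called without TNFα (-0.09, adjusted p = 0.174) and was lower with it (-0.31, SE 0.05, adjusted p = 0.000118).

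The type VI chains, which form the beaded filaments around cells, were lower in 2 of 3 cases in both comparisons. Of all genes 17.6% were lower without TNFα and 18.4% with it. Among all genes above the median brightness these shares were 28.4% and 28.8%, and 3 genes are too few to set against them. Col6a1 read 11.67, 11.66, 11.62 and 11.49 in untreated littermate and 11.32, 11.38, 11.44 and 11.32 in untreated SIMPL-/- MEFs, a log2 difference of -0.25 (SE 0.06, adjusted p = 0.00533), and -0.34 with TNFα. Col6a2 read 11.36, 11.49, 11.32 and 11.19 against 11.06, 11.14, 11.12 and 11.04, a difference of -0.25 (SE 0.06, adjusted p = 0.0029), and -0.30 with TNFα. Col6a3, the remaining chain of the same monomer, read 12.20, 12.25, 12.08 and 12.02 against 11.92, 12.12, 12.14 and 11.93 in groups that overlapped. Its difference was -0.11 (adjusted p = 0.203) without and 0.09 (adjusted p = 0.326) with TNFα. Of the transmembrane collagens Col25a1 was lower (-0.24, SE 0.08, adjusted p = 0.0255), and -0.29 with TNFα, with overlapping groups without TNFα. Its call without TNFα is lost under several alternatives. Col13a1, Col17a1 and Col23a1 were not called.

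Because probe sets respond differently, levels of different genes cannot be set against each other, but the difference between 2 chains on an array can be followed across groups. Of 10 chain pairs, the littermate and SIMPL-/- arrays did not overlap in this difference for 5 without TNFα and for 6 with it, as a description with no test. Single genes did not overlap for 39.6% of all genes without and 33.3% with TNFα. The share for other pairs of genes was not computed. Col8a1 minus Col8a2 was 1.36 to 1.92 on the untreated littermate arrays and 2.25 to 2.99 on the untreated SIMPL-/- arrays, a shift of 1.08 (1.23 with TNFα). Col11a1 minus Col11a2 was 3.21 to 3.53 against 2.33 to 2.65, a shift of -0.90 (-0.74 with TNFα). Smaller shifts were those of Col4a1 minus Col4a2, from a mean of -0.30 to -0.10, and of Col5a1 minus Col5a2, from -0.65 to -0.45. Col6a1 minus Col6a3 went from -0.53 to -0.66 without TNFα and from -0.45 to -0.88 with it. The Col1a1 and Col1a2 pair shifted by 0.05 without TNFα, with overlapping groups, and by 0.08 with it, without overlap. Col6a1 minus Col6a2 had a mean of 0.27 in both untreated genotypes, and the pairs Col4a3 and Col4a4, Col4a5 and Col4a6, and Col9a1 and Col9a2 overlapped in both comparisons.

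**Figure D3:**
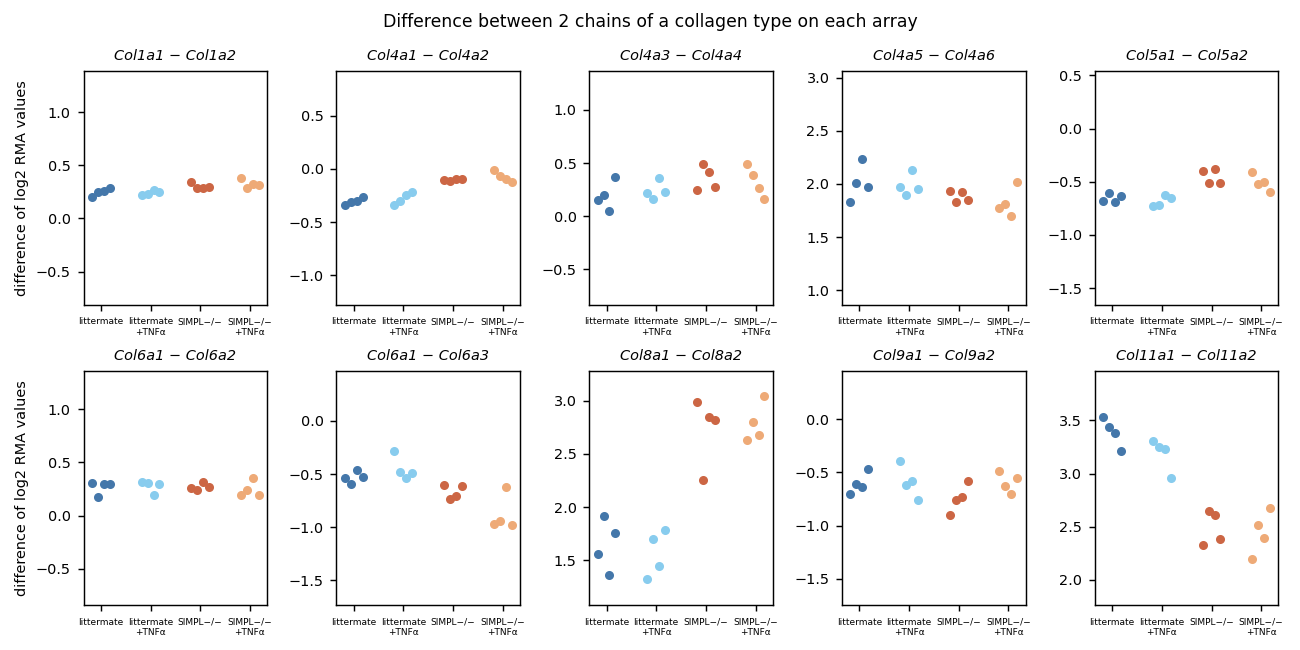
Difference of the log2 RMA values of 2 chains of a collagen type (y axis, the same span in each panel) on each of the 16 arrays, by group (x axis), for 10 pairs; each point is an array. Col8a1 minus Col8a2 is higher and Col11a1 minus Col11a2 lower on every SIMPL-/- array than on any littermate array, while Col6a1 minus Col6a2 overlaps in all groups.

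The response to TNFα asks whether the cytokine changed collagen mRNA within the time of treatment. No collagen gene was called in littermate MEFs, where 5.15% of all genes were (2.70% higher, 2.45% lower), nor in SIMPL-/- MEFs, where 3.12% were (1.73% higher, 1.39% lower). In littermate MEFs no collagen gene passed an unadjusted p under 0.05 by limma either (16.6% of all genes did), and the methods' t-test also called none after adjustment. The estimates ran from -0.15 (Col6a3, adjusted p = 0.316) to 0.16, with a median of 0, and no member's treated and untreated arrays were fully apart (11.4% of all genes were). The 95% intervals of the 38 log2 responses together spanned -0.29 to 0.45, so that a change over 1.5-fold lay outside the interval of each of the 38 genes.

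In SIMPL-/- MEFs the estimates ran from -0.16 to 0.07 with a median of -0.05, beside -0.02 for all genes, and the intervals spanned -0.35 to 0.31. At an unadjusted p under 0.05 by limma 4 collagen genes were lower with TNFα and none was higher, while 15.6% of all genes passed that threshold. They were Col3a1 (-0.13, adjusted p = 0.241), Col6a1 (-0.15, adjusted p = 0.259), Col18a1 (-0.12, adjusted p = 0.279) and Col24a1 (-0.13, adjusted p = 0.274). Col3a1 read 12.86, 12.95, 12.92 and 12.78 with TNFα against 12.96, 13.02, 13.07 and 12.99 without it, with the highest treated array just below the lowest untreated one. It was called in this comparison under trend and robust variance moderation alone. Col18a1 and Col24a1 were the other 2 of 3 members whose treated and untreated arrays did not overlap (9.28% of all genes).

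The difference between both responses, tested as an interaction, was called for no collagen gene and for 0.537% of all genes. One member passed an unadjusted p under 0.05 by limma (12.9% of all genes did), and the unmoderated test called none after adjustment. This was Col18a1, with a response of 0.10 in littermate and -0.12 in SIMPL-/- MEFs, an interaction of -0.21 (SE 0.07, adjusted p = 0.239 by limma). It read 9.03, 9.05, 8.98 and 8.97 in untreated and 9.20, 9.07, 9.11 and 9.03 in treated littermate MEFs, and 8.96, 8.84, 8.94 and 8.91 in untreated and 8.82, 8.83, 8.82 and 8.70 in treated SIMPL-/- MEFs. The treated and untreated littermate arrays overlapped. The next estimates were Col6a3 at 0.21 (adjusted p = 0.391) and Col23a1 at -0.27 (adjusted p = 0.405). Genes called in 1 of the genotype comparisons alone (Col19a1, Col18a1 and Col24a1) are thus not shown to depend on TNFα.

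**Figure D4:**
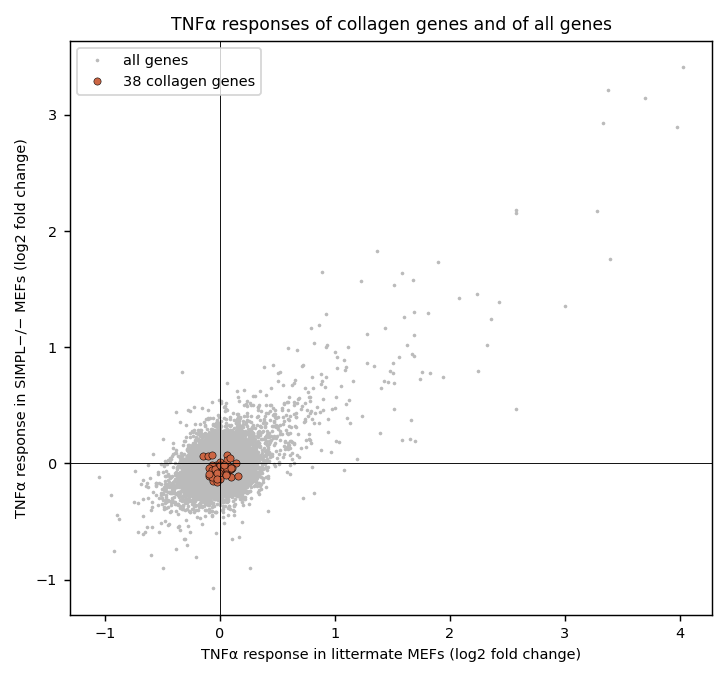
TNFα response as log2 fold change in littermate MEFs (x axis) and in SIMPL-/- MEFs (y axis); grey points are all genes and orange points the 38 collagen genes, whose estimates lie between -0.16 and 0.16 on both axes, while single other genes reach 4.03.

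Genes that modify, fold, cut, cross-link and bind collagen were compared in 5 lists, against the 40.9% of all genes called between the untreated genotypes (23.3% higher, 17.6% lower). The share called was 71.4% for modifying enzymes, 54.5% for chaperones and secretion, 100% of 7 proteinase genes, 50% of 4 lysyl oxidases and 66.7% for receptors, and with so few genes a list the shares are a description. The list means in untreated littermate MEFs, 8.79 to 10.57, lay above the median gene (7.06). Among all genes above that median 53.2% were called, near the shares of the chaperones and lysyl oxidases. Of 14 hydroxylases and glycosyltransferases, which modify the chains in the endoplasmic reticulum, 4 were higher and 6 lower without TNFα (median log2 difference 0.02). The largest differences were decreases of P3h2 (-0.71, adjusted p = 5.2e-06), P3h3 (-0.50, adjusted p = 6.71e-08), both prolyl 3-hydroxylase family genes, and the lysyl hydroxylase Plod1 (-0.44, adjusted p = 1.61e-05). With TNFα these 3 differed by -0.71, -0.59 and -0.58. Of 11 chaperone and secretion genes 4 were higher and 2 lower (median 0.09), led by the prolyl isomerase Fkbp14 (0.54) and the COPII coat genes Sec24d (0.44) and Sec23a (0.33), which with TNFα stood at 0.21, 0.30 and 0.28.

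Of 7 genes for procollagen proteinases and their enhancers 5 were higher and 2 lower without TNFα (median 0.18). Pcolce2, an enhancer of C-propeptide cleavage, rose from 7.16 ± 0.07 to 8.96 ± 0.17 (SD, n = 4), a log2 difference of 1.79 (adjusted p = 5.99e-11 by limma). Tll1, a C-proteinase of the tolloid family, was higher by 1.24 and Adamts3, an N-proteinase, lower (-1.19). Among 4 lysyl oxidases, which cross-link collagen outside the cell, Loxl3 (1.38, adjusted p = 1.87e-11) and Loxl4 (1.11, adjusted p = 3.85e-09) were higher. Lox differed by 0.10 (adjusted p = 0.163) and Loxl1 by 0.12 (adjusted p = 0.0611). With TNFα Loxl3 stood at 1.30, Loxl4 at 0.92 and Lox at 0.18 (adjusted p = 0.0202).

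Of 9 collagen receptors 2 were higher and 4 lower without TNFα (median -0.14). The lower ones included Lair1, an inhibitory receptor of leukocytes (-0.98), Mrc2, the endocytic collagen receptor of fibroblasts (-0.41), and Itga11, an integrin chain for fibrillar collagen (-0.40). Ddr1, a collagen-binding receptor tyrosine kinase chosen after its values were seen, was the 1 gene of these 5 lists called with TNFα in littermate MEFs. It went from 8.83 ± 0.12 to 9.11 ± 0.10 (SD, n = 4), a log2 difference of 0.28 (adjusted p = 0.0334 by limma). Of all genes 5.15% were called in that response. In SIMPL-/- MEFs no gene of the 5 lists was called with TNFα (smallest adjusted p = 0.116). A further 6 collagen genes outside the 38 held 2 that were higher without TNFα, Col6a4 (0.30, adjusted p = 0.0198) and Col28a1 (0.29, adjusted p = 0.00077). This share of 33.3% called was below the 40.9% of all genes. With TNFα 1 of the 6 was called, or 16.7% against 36.3% of all genes.

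Markers of other cell types moved with the genotype beside these collagen differences. Of all genes 23.3% were higher and 17.6% lower in untreated SIMPL-/- MEFs. Of 29 myeloid markers 28 were lower and none was higher in untreated SIMPL-/- MEFs (median log2 difference -1.96), led by Mrc1 (-3.42), Mpeg1 (-3.33) and Cd68 (-2.96). Of 14 fibroblast markers 10 were lower and 3 higher (median -0.41), with Lum, a proteoglycan that binds collagen fibrils, at -2.87, Dcn, another, at -1.02 and S100a4 at 1.69. The mean of the fibroblast list ran from 11.25 to 11.34 in untreated littermate and from 10.89 to 10.96 in untreated SIMPL-/- MEFs. Of 11 adipocyte markers 8 were higher (median 0.82), with Adipoq at 3.07, Fabp4 at 2.44 and Cidec at 1.27, and the list mean ran from 6.58 to 6.63 against 7.57 to 7.67. Of 12 epithelial markers 7 were higher (median 0.35), with Krt18 at 2.13, Krt8 at 1.64 and Krt14 at 1.64, and list means of 6.22 to 6.38 against 6.90 to 7.26. In untreated littermate MEFs the adipocyte and epithelial list means lay below the median gene (7.06). Among all genes below that median, 77.7% had an estimate above 0 between the untreated genotypes, with a median of 0.11. Of 10 smooth muscle markers 7 were higher and 1 lower (median 0.40), with Cnn1 at 0.97, Actg2 at 0.86 and Mylk at -0.70, and list means of 9.23 to 9.36 against 9.61 to 9.68.

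In the remaining lists the share called was 70% for neural and Schwann cell markers, 50% for endothelial and 40% for skeletal muscle markers. It was 33.3% for chondrocyte and 28.6% for osteoblast markers, against 40.9% of all genes. The means of these lists in untreated littermate MEFs, 5.93 to 6.95, lay below the median gene (7.06). Among all genes below that median 28.5% were called. Of 12 chondrocyte markers 2 were higher and 2 lower (median 0.02), with the cartilage matrix genes Comp (-0.86), Epyc (-0.84) and Matn3 (0.38). Of 7 osteoblast markers 1 was higher (Sp7, 0.60) and 1 lower (Phex, -0.26). Of 10 skeletal muscle markers 4 were higher, with Acta1 (0.89), Chrna1 (0.42) and Myog (0.29). Of 12 endothelial markers 5 were higher and 1 lower, with Erg (-1.06), Eng (0.72) and Emcn (0.68). Of 10 neural and Schwann cell markers 3 were higher and 4 lower, with Tubb3 (1.30), Cdh19 (-1.26) and Map2 (-0.94). In RNA of a whole culture fewer cells of a type and less RNA per cell cannot be told apart, and the part of these markers in the collagen differences was not tested.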

How the data were processed

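The authors deposited log2 values for 28853 probe sets, made with RMA in Partek by the submitters' processing notes (versions not given in the sources used here), while the study's methods name Affymetrix Microarray Suite. Groups came from the sample titles. Of the probe sets 21789 have 1 gene symbol in the platform annotation, and the one with the highest mean over all arrays stood for a gene (19938 genes, no filter on dim genes). limma 3.58.1 in R 4.3.3 was fitted with 4 group means to all 16 arrays (12 residual and 6.19 prior degrees of freedom), with two-sided tests and Benjamini-Hochberg adjustment over all genes of each of 5 contrasts. The study's methods describe 4 separate derivations of MEFs per genotype, each from 1 embryo and analysed on its own. The labels do not tie arrays to embryos. Precision is limited by the 4 arrays of a group. The procedure was tested on simulated data.

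The 38 members and all lists (structural classes, collagen modification, chaperones and secretion, proteinases, lysyl oxidases, receptors, other collagens, and markers of fibroblasts, myeloid cells, chondrocytes, osteoblasts, adipocytes, smooth and skeletal muscle, endothelium, epithelium and neural cells) were chosen with earlier results of these data known. Lists are described by counts and medians. Named were the 15 members with the largest called difference between untreated genotypes, their chain partners, any member called with TNFα, and up to 3 called genes per list. List genes without a single-symbol probe set were not analysed here. Alternatives were array centring, quantile normalization, a filter on dim genes, the mean of probe sets, trend and robust moderation, array weights, a fit of only the groups compared, a t-test after the study's methods, stricter thresholds and leaving out each array. Promoter motifs were counted in RefSeq windows with Python 3.11.15.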

Additional observations from a re-analysis of the deposited data

Results flagged for a closer look

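In 8 of 152 sets of 4 arrays (a collagen gene in a group), 1 array stood apart by Dixon's ratio at its 95% critical value, and chance alone gives about 1 in 20. Col4a6 read 6.17 on untreated littermate replicate 3, where the others read 6.43 to 6.47. Col12a1 read 12.72 on TNFα treated littermate replicate 1 (others 12.83), Col16a1 9.60 on the same array (others 9.48 to 9.49), and Col5a1 11.63 on TNFα treated littermate replicate 2 (others 11.67). In untreated SIMPL-/- MEFs Col2a1 read 9.02 on replicate 4 (others 8.98 to 8.99), Col9a1 7.35 on replicate 4 (others 7.13 to 7.14) and Col24a1 7.30 on replicate 2 (others 7.14 to 7.16). Col18a1 read 8.70 on TNFα treated SIMPL-/- replicate 4 (others 8.82 to 8.83). With any of these arrays left out, no called collagen difference changed direction.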

How the results depend on the processing

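No paired analysis was possible because the labels give the groups no shared replicate numbers and no source pairs arrays by embryo. No direction of a called difference turned under any alternative. At a threshold of 1.5-fold together with p under 0.001 before adjustment, the collagen genes called higher and lower between untreated genotypes were 1 and 4, in place of 8 and 12, and with TNFα 1 and 4, in place of 7 and 14. Under trend and robust moderation 1 collagen gene (Col3a1) was lower with TNFα in SIMPL-/- MEFs, in place of 0. Leaving out 1 array at a time gave 8 to 10 higher and 11 to 13 lower without TNFα, 7 to 8 higher and 14 lower with it, and 0 in both responses and in their difference. Of the 41 calls between genotypes, 38 held under every alternative that kept the threshold of 0.05. The others were Col4a2 without TNFα (lost after centring each array on its median, and without littermate replicate 4), Col25a1 without TNFα (lost under quantile normalization, under the methods' t-test, and without untreated littermate replicate 1 or 2 or untreated SIMPL-/- replicate 3 or 4) and Col25a1 with TNFα (lost under the methods' t-test). The causes were not tested. With dim genes left out, 31 collagen genes could be tested, and Col4a6 and Col19a1 were not among them. No scaling moved the median of all genes by over 0.1. The array files give no detection calls, so whether the 7 dim collagen genes were above background is not known.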
